A study of Mus musculus with 6 samples.

Results

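Respiratory complex I, or NADH:ubiquinone oxidoreductase, was followed through the nuclear genes that carry its subunit names. All genes of the deposited table whose symbol begins with Ndufa, Ndufb, Ndufc, Ndufs or Ndufv followed by a digit were taken, which gave 39 of 16759 genes. Genes with the Ndufaf prefix code for assembly factors, not for subunits, and were left out of this set. By class the set holds 14 A, 12 B, 2 C, 8 S and 3 V genes. Of the 39, 35 code for subunits of the complex and Ndufa4 codes for a protein now placed in complex IV. The other 3 are Ndufa4l2, a paralog of Ndufa4, and Ndufb4b and Ndufb4c, which are copies of Ndufb4. Ndufb1 and the mitochondrially encoded subunits were not analysed here.

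The RNA came from hind leg muscle of male C57BL/6J mice that were 8 weeks old at the start, in a control (Con) group and an exercise (EX) group of 3 mice each, with 1 library per mouse. The EX mice ran on a treadmill for 60 min a day, 5 days a week, over 6 weeks and covered 22 km each. Their muscle was taken 24 h after training ended. The Con mice did no treadmill training, and when their muscle was taken is not given. Fat between the muscles was removed and a small piece of tissue was kept for RNA. Which of the hind leg muscles it came from is not given, so each value is a mean over the fibre types and other cells that this piece held. Fewer cells of a type and less RNA per cell cannot be told apart in such samples.

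Complex I is the entry point of NADH electrons into the respiratory chain and pumps protons across the inner mitochondrial membrane. Its L shape joins a peripheral arm, which carries the flavin and the iron-sulfur clusters in core subunits, to a membrane arm whose core is encoded by mitochondrial DNA. Accessory subunits surround both arms and are needed for assembly and stability. Endurance training is a classic stimulus of mitochondrial content in skeletal muscle, and the comparison asked whether the transcripts of these subunits differed between trained and untrained muscle.

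Counts on genes totalled between 13845362 and 16240431 in a library. Genes are called higher or lower here by the edgeR test described below, at an adjusted p under 0.05. Over all genes tested, it called 9.11% higher and 8.8% lower. The 10 markers of skeletal muscle summed to between 174452 and 182088 CPM in Con and between 189983 and 200304 in EX. CPM are counts scaled to a common library size. Of these 10 genes, 6 were higher, 1 was lower and 3 did not pass. Markers of other fibres and cells moved too, and the part of all these markers in the results was not tested. The 8 slow fibre genes summed to 142 to 149 CPM in Con and 414 to 444 in EX, and all 8 were higher in EX. The 8 macrophage genes summed to 40.5 to 44.8 CPM in Con and 74.8 to 82.0 in EX, with 6 of 7 tested higher. The 8 tendon genes summed to 430.0 to 447 CPM in Con and 664 to 695 in EX, with 5 of 7 tested higher. The 8 endothelial genes summed to 741 to 760 CPM in Con and 649 to 668 in EX. The 5 erythroid genes summed to 242 to 266 CPM in Con and 264 to 291 in EX, with 1 of 5 higher. The 7 adipocyte genes summed to 1027 to 1064 CPM in Con and 741 to 776 in EX. That sum does not show each gene's direction, since 4 of the 5 adipocyte genes tested were higher in EX and 1 was lower.

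Con replicate 1 stood apart for these genes. Of the 38 members other than Ndufb4b, it held the highest value of the 6 libraries for 12 and the lowest for 11, or 60.5% of the members at one end. Over the 10883 genes later tested it was at one end for 43.1%. EX replicate 3 was highest for 14 and lowest for 2 of the same members, and Con replicate 3 was highest for 0 and lowest for 14. The members with the largest surplus in Con replicate 1 were Ndufb7, Ndufb10 and Ndufv3. Across the 38 members, the deviation of Con replicate 1 from its group mean had a Spearman correlation of 0.36 with GC content. Over all genes with a mean count of at least 50 it was 0.23. In the other libraries this correlation ran from -0.29 to 0.10 over the members and from -0.33 to 0.27 over those genes. The points share 1 library, so this is a description only.

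Regulatory sequence was read from RefSeq (GRCm38.p6) for 33 of the 39 members, as the 250 bases before each gene's start in RefSeq. The starts in GENCODE, used for the gene positions given later, differ from these, and for 20 of 32 members the window reaches into the GENCODE gene. Ndufc1 and Ndufc2 are shown because both genes of class C were higher in EX, with the 33 bases of the Ndufc1 window that lie inside its GENCODE gene left off. They are printed 5′ to 3′ on the strand of the gene and hold none of the motifs searched, so no letter is in capitals.
Ndufc1, chr3:51408989-51409205, minus strand: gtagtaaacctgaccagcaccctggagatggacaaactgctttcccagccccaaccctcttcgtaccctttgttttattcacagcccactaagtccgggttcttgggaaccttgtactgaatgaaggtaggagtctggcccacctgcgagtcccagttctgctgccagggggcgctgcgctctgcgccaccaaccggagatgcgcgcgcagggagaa
Ndufc2, chr7:97399753-97400002, plus strand: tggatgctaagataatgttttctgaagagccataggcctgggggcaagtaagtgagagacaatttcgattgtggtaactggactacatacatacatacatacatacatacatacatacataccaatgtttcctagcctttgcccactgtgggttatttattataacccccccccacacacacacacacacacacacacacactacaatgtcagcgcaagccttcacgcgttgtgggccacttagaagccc

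Matches to 4 motifs of factors known for nuclear genes of the respiratory chain were searched on both strands of these windows. The NRF1 motif, which reads GCGC, any base, T and GCGC, was in the windows of 6 of 33 members (18.2%) and of 1144 of 27025 genes with a window (4.23%). No member's window held the ERRalpha motif TCAAGGTCA (0.422% of all genes), the GABP motif CCGGAAGT (3.23%) or the YY1 motif AAGATGGCG (0.71%). The windows of the members were also richer in GC than those of all genes (medians of 57.6% and 52.4%), and the part of base composition in these shares was not tested. The matches are shown with 8 bases before and 6 after, in the direction of the gene, with the match in capitals. Ndufb4 has 3 of them. The matches of Ndufa5, Ndufb4 and Ndufs5 are on the opposite strand, so their capitals spell the reverse complement of the motif, those of Ndufa8 and Ndufs6 are on the strand of the gene, and that of Ndufa11 reads on both.
Ndufa11, chr17:56717694-56717717, plus strand: tgcactgcGCGCATGCGCgcacgc
Ndufa5, chr6:24527701-24527724, minus strand: tgtgagctGCGCAGGCGCaaatct
Ndufa8, chr2:36049353-36049376, minus strand: agagcagtGCGCTTGCGCgtcgct
Ndufb4, chr16:37654375-37654398, minus strand: tcatatccGCGCAGGCGCagatgt
Ndufb4, chr16:37654432-37654455, minus strand: ttgtgcgcGCGCAGGCGCacttcc
Ndufb4, chr16:37654544-37654567, minus strand: gaagcagtGCGCACGCGCagaata
Ndufs5, chr4:123718269-123718292, minus strand: tgcttgctGCGCAGGCGCagaccc
Ndufs6, chr13:73328483-73328506, minus strand: actgctgtGCGCCTGCGCcggcac
Of these 6 genes Ndufa11 alone passed the test described next, and a match of letters shows neither binding nor use. By GENCODE the stretches of Ndufa5, Ndufa8 and Ndufs6 and the first of Ndufb4 lie within the gene, and the second of Ndufb4 lies across its start.

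Counts were scaled by TMM normalization, which sets libraries to a common size. The quasi-likelihood test of edgeR was then run on the 10883 genes whose mean reached 1 FPKM, with Benjamini-Hochberg adjustment over all of them. All 39 members were above this filter. At an adjusted p under 0.05, 5 members were higher in EX, namely Ndufc1, Ndufc2, Ndufa2, Ndufa11 and Ndufb4c. Ndufa4l2 was lower, and 33 did not pass. The members called made up 15.4% of the set, while 17.9% of all genes tested were called (9.11% higher and 8.8% lower). Of the 35 subunits of the complex alone, 4 were higher and 0 lower, or 11.4% called. Leaving out 1 library gave 1 member higher in EX (EX replicate 3 left out), 2 (EX replicate 2), 3 (Con replicate 2 or Con replicate 3), 5 (EX replicate 1) or 6 (Con replicate 1). Over all genes the share called higher was 6.13%, 7.07%, 6.97%, 8.21%, 7.53% and 8.58% in these fits, in the same order of libraries. On TPM values, which the authors scaled to the sum of all length-corrected values, limma called 0 members higher and 4 lower (Ndufa4l2, Ndufa12, Ndufb11 and Ndufv1). Over all genes that fit gave 340 higher (3.12%) and 1684 lower (15.5%), against 991 and 958 with edgeR, and its median log2 fold change over all genes was -0.09.

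**Figure D1:**
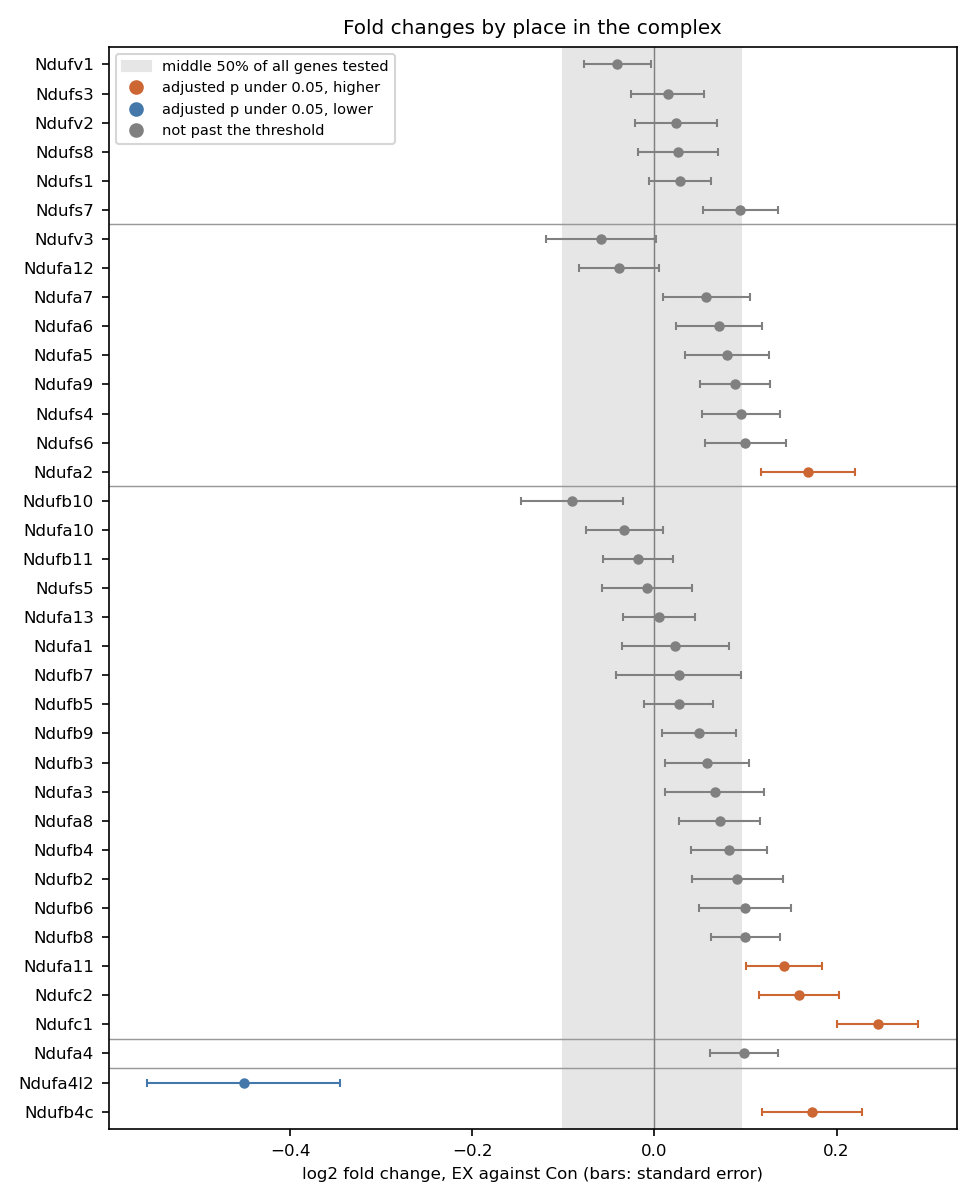
Log2 fold change of EX against Con for 37 of the 39 members (Ndufb4b is among those left out, for its low counts), with the standard error as bars, in the order core of the peripheral arm, accessory subunits of the peripheral arm, accessory subunits of the membrane arm, Ndufa4, and paralogs. Grey points did not pass the adjusted p threshold, orange points were higher and the blue point lower in EX, and 27 of the 37 points lie in the grey band, which holds the middle 50% of all genes tested.

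Most members moved by little. The log2 fold change was above zero for 30 members and below zero for 9, with a median of 0.06 over the members and of -0.00 over all genes tested. With limma 18 members lay above zero and 21 below on FPKM values, and 8 above and 31 below on TPM values, where the median over all genes was itself -0.06 and -0.09. Relative to all genes, the members' median was higher by 0.04 in both of these fits and by 0.06 with edgeR. In 11 members the 3 EX values all lay above the 3 Con values, in 1 they all lay below and in 27 the groups overlapped. Among the 10883 genes, 33.7% had groups apart (EX above in 16.7% and below in 16.9%). The 35 subunits of the complex together summed to 6523, 6402 and 6322 CPM in Con and 6435, 6662 and 6618 CPM in EX. These sums overlapped, at 6416 ± 101 (SD, n = 3) in Con and 6572 ± 120.2 in EX, a ratio of 1.02. In TPM the order was the other way, with sums of 21269, 21473 and 21918 in Con and 20729, 20758 and 20947 in EX. All EX sums of TPM lay below all Con sums, at a ratio of 0.966, on the scale where the median over all genes was also lower in EX.

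Base composition and length were modelled in further fits. The transcripts of the members were short, with a median annotated length of 677.5 bases against 2196 over all genes with a mean count of at least 50, and a median GC content of 53.0% against 51.0%. With edgeR offsets for length alone the median over the members was 0.04, with 30 above zero and 9 below, and the 6 calls were the same. With edgeR offsets for GC content and transcript length, an alternative chosen after seeing the data, 21 members lay above zero and 18 below. The median then was 0.00 over the members, and the calls were Ndufc1, Ndufc2 and Ndufa4l2, while 18.8% of all genes were called. Across 38 members the log2 fold change had a Spearman correlation of -0.39 with GC content, and of -0.37 in the fit with GC and length offsets. Over 10221 genes it was 0.01 before the offsets. These are given as a description over genes that share 6 libraries.

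**Figure D2:**
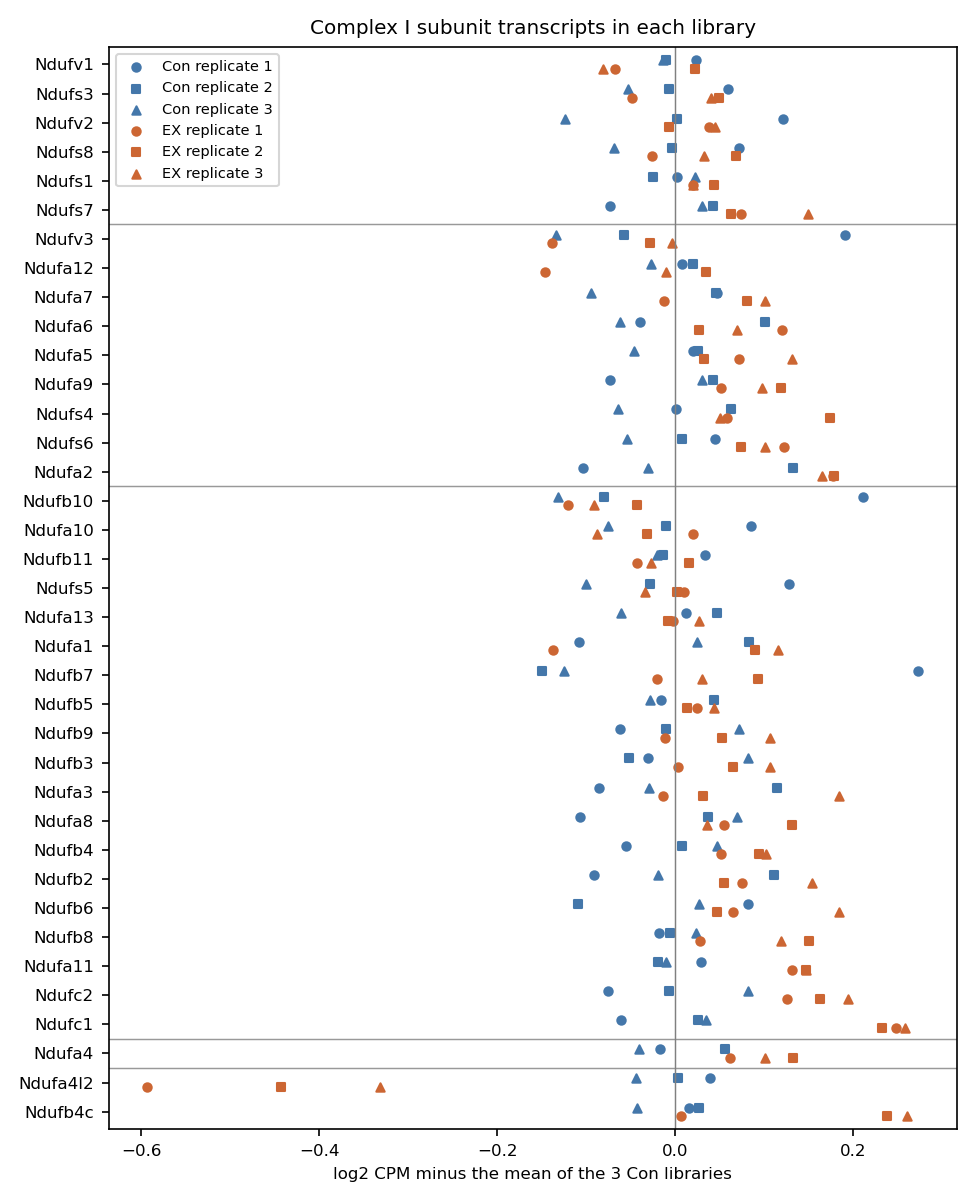
Log2 CPM of each member in each library minus the mean of the 3 Con libraries, with Con in blue and EX in orange. Each replicate number has its own marker shape, which is not meant as a pairing of mice. Members are in the same order as in the plot of fold changes, and Con replicate 1 (blue circles) lies at one end of the 6 values in 22 of the 37 members drawn, farthest to the right for Ndufb7.

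The 7 nuclear core subunits, which bind the cofactors and ubiquinone, showed little change. None of the 7 passed the edgeR test, which called 17.9% of all genes. Their log2 fold changes ran from -0.04 (Ndufv1) to 0.09 (Ndufs7), and the widest reach of their 95% confidence intervals was from -0.12 to 0.18. Ndufv1, which holds the flavin and the NADH site, was at 402, 393 and 391 CPM in Con and 377, 401 and 374 in EX. The Con values lay within the range of the EX values apart from Con replicate 1, which was the highest of the 6 libraries by less than 1 CPM. Ndufv2, an iron-sulfur subunit beside Ndufv1, was at 308, 283 and 259.6 CPM in Con and 291, 282 and 292 in EX. Its Con libraries spanned the EX values, and its log2 fold change of 0.02 (adjusted p = 0.77 by edgeR, standard error 0.05) turned to -0.04 without Con replicate 3 and was 0.08 without Con replicate 1. Ndufs1, which carries iron-sulfur clusters and is the largest subunit, was at 461 ± 7.41 CPM in Con and 470.3 ± 4.44 in EX (SD, n = 3). Exons of Eef1b2, a translation elongation factor gene, overlap those of Ndufs1 on the opposite strand, and Eef1b2 was higher in EX (log2 fold change 0.23, adjusted p = 2.2e-04 by edgeR). Ndufs7, which holds the iron-sulfur cluster next to ubiquinone, was at 171, 185 and 184 CPM in Con and 189, 188 and 199.5 in EX. Its EX values all lay above its Con values, and the difference did not pass the test (log2 fold change 0.09, standard error 0.04, adjusted p = 0.12 by edgeR). Ndufs3 and Ndufs8, also core subunits, had log2 fold changes of 0.01 and 0.03.

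Of the 9 accessory subunits of the peripheral arm, Ndufa2 alone was called (11.1%, against 17.9% of all genes tested). Ndufa2, a small subunit with a thioredoxin-like fold, was at 62.5, 73.6 and 65.7 CPM in Con and at 75.9, 76.0 and 75.3 in EX. The groups did not overlap, but Con replicate 2 lay much closer to the EX libraries than to the other Con libraries. The log2 fold change was 0.17 (standard error 0.05, adjusted p = 0.023 by edgeR). Among fits that left out 1 library the call held only without Con replicate 2, and the adjusted p was 0.11 without Con replicate 1. With DESeq2 it was 0.071, and with the GC and length offsets 0.081. Exons of Tmco6 overlap those of Ndufa2 on the opposite strand, and no source used here states whether counting used strand, so reads of both genes may be mixed. Tmco6 had a log2 fold change of -0.15 and did not pass the test (adjusted p = 0.39 by edgeR).

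The other accessory subunits of this arm lay between -0.06 (Ndufv3) and 0.10 (Ndufs6) on the log2 scale. Ndufs6, a zinc-binding subunit, was at 84.1, 82.0 and 78.6 CPM in Con and 88.8, 85.8 and 87.4 in EX. The groups did not overlap, while the adjusted p was 0.13 by edgeR at a log2 fold change of 0.10 (standard error 0.04). Exons of Mrpl36 overlap those of Ndufs6 on the other strand. Ndufv3 was at 84.5, 71.1 and 67.5 CPM in Con and 67.2, 72.6 and 73.9 in EX. Con replicate 1 was the only Con library above the EX range, and without it the log2 fold change of -0.06 turned to 0.04. Ndufs4, whose loss causes Leigh syndrome in humans, was at 172 ± 7.57 CPM in Con and 183 ± 8.86 in EX (SD, n = 3), and its groups overlapped. Ndufa9 and Ndufa5 were the other 2 subunits of this arm whose EX values all lay above Con, at log2 fold changes of 0.09 and 0.08.

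Accessory subunits of the membrane arm gave 3 of the calls, all higher in EX, among 19 genes. That is 15.8% called, against 17.9% of all genes tested (9.11% higher). Both class C genes were among them. Ndufc1 (gene 66377, chr3:51404677-51408988 in GRCm38), a small membrane-arm subunit, was at 71.2, 75.6 and 76.1 CPM in Con and 88.3, 87.3 and 88.9 in EX. The EX libraries lay together, well above every Con library. The log2 fold change was 0.24 (standard error 0.04, adjusted p = 2.2e-04 by edgeR), or 1.19-fold, the largest increase among the 35 subunits. Its counts ran from 993 to 1400, and the call held in all 6 fits that left out 1 library. It did not hold with limma on log2(FPKM + 0.1) or log2(FPKM + 1), where the log2 fold change was 0.16 and the adjusted p 0.085. Nor did it hold with limma on TPM values, at 0.13 (adjusted p = 0.13).

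Ndufc2 (gene 68197, chr7:97400003-97407802), which lies beside Ndufc1 in the membrane arm, was at 119, 124 and 132 CPM in Con and 136, 140.0 and 143 in EX. The lowest EX library lay just above the highest Con library. The log2 fold change was 0.16 (standard error 0.04, adjusted p = 0.011 by edgeR), or 1.12-fold. Leaving out Con replicate 2 gave an adjusted p of 0.052 and leaving out EX replicate 3 gave 0.077, while the GC and length offsets gave 0.042. With limma the log2 fold change of Ndufc2 was 0.10 on log2(FPKM + 0.1) (adjusted p = 0.25) and 0.06 on TPM values (adjusted p = 0.42). Ndufa11 (gene 69875, chr17:56717767-56722141), which is known to stabilise the membrane arm, was at 101, 98.0 and 98.6 CPM in Con and 109, 110.0 and 109.9 in EX. The libraries of each group lay close together, the groups were apart, and the log2 fold change was 0.14 (standard error 0.04, adjusted p = 0.016 by edgeR). Leaving out Con replicate 2, EX replicate 2 or EX replicate 3 gave adjusted p of 0.082, 0.054 and 0.068, and the GC and length offsets gave 0.11. Exons of Vmac overlap those of Ndufa11 on the opposite strand, and Vmac had a log2 fold change of -0.16 (adjusted p = 0.57 by edgeR).

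**Figure D3:**
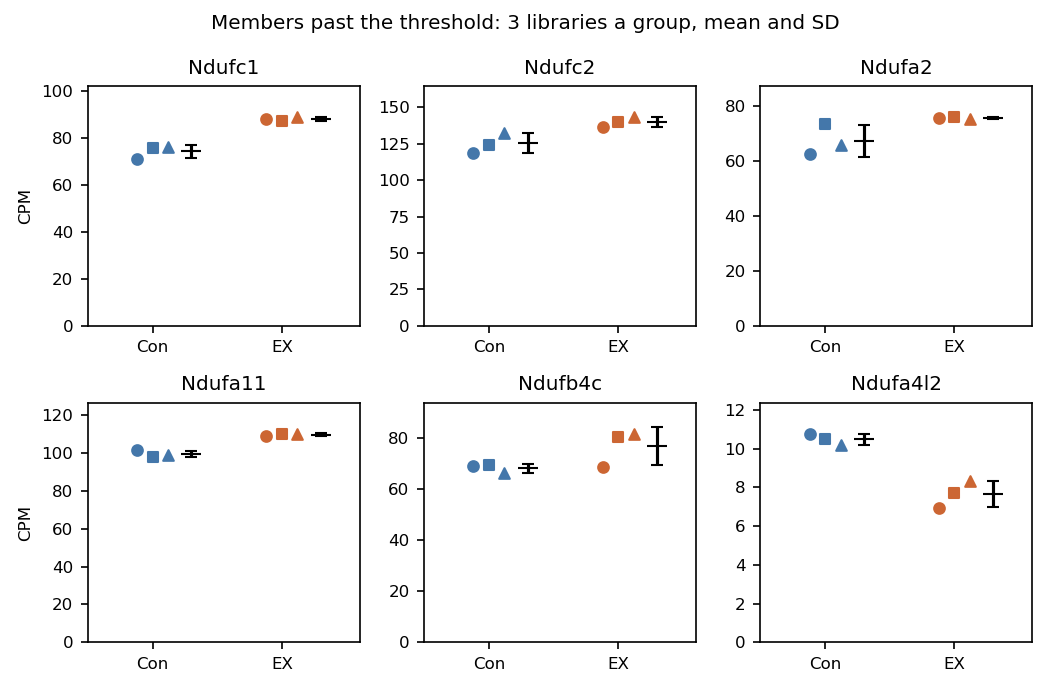
CPM of the 6 members past the threshold in each library (circle, square and triangle for replicates 1, 2 and 3), with the mean and SD of the 3 libraries in black and every axis starting at 0. Ndufc1 and Ndufa11 show tight groups that are apart, Con replicate 2 of Ndufa2 lies near the EX libraries, EX replicate 1 of Ndufb4c lies among the Con libraries, and Ndufa4l2 is lower in EX.

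The remaining 16 membrane-arm genes ran from -0.09 (Ndufb10) to 0.10 (Ndufb8) on the log2 scale. Ndufb10, an accessory subunit at the far part of this arm, was at 278, 227 and 219 CPM in Con and 221, 233 and 225 in EX. Con replicate 1 alone was above the EX libraries. Its log2 fold change of -0.09 (adjusted p = 0.29 by edgeR, standard error 0.06) turned to 0.02 without that library and passed the threshold without Con replicate 3, at -0.16 (adjusted p = 0.039). Ndufb7, on the intermembrane side, showed the same library more strongly, at 125, 93.0 and 94.6 CPM in Con and 102, 110.0 and 105 in EX. Con replicate 1 was the highest and the other Con libraries were the lowest of the 6 values. The log2 fold change of Ndufb7 was 0.03 (standard error 0.07, adjusted p = 0.84 by edgeR), and it was 0.17 without Con replicate 1, -0.05 without Con replicate 2 and -0.04 without Con replicate 3. Ndufb7 and Ndufb6 passed the threshold as higher in EX without Con replicate 1. Ndufs5, an intermembrane-side subunit that belongs to this arm despite its name, was at 106, 95.0 and 90.4 CPM in Con and 97.5, 97.0 and 94.6 in EX. The Con values again spanned the EX values, and the log2 fold change was -0.01 (standard error 0.05, adjusted p = 0.94 by edgeR). Leaving out Con replicate 1 turned it to 0.05, and leaving out EX replicate 3 to 0.01. Ndufb8, often used as a marker protein of assembled complex I, was at 306, 308 and 315 CPM in Con and 316, 344 and 336 in EX. EX replicate 1 was close to the highest Con library, and the difference did not pass the test (log2 fold change 0.10, standard error 0.04, adjusted p = 0.068 by edgeR). It did so without EX replicate 1.

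Ndufb4 and its copies could not be read separately. Ndufb4c is annotated as a processed pseudogene at chr15:73809507-73809896 (GRCm38), and all 390 bases of its transcript are identical to the transcript of Ndufb4, which lies at chr16:37647170-37654453. Counts of Ndufb4, Ndufb4b and Ndufb4c were the only ones among the members that were not whole numbers, within a tolerance of 0.005. Ndufb4c was at 68.9, 69.5 and 66.2 CPM in Con and 68.5, 80.4 and 81.7 in EX. EX replicate 1 lay among the Con libraries, and the log2 fold change was 0.17 (standard error 0.06, adjusted p = 0.028 by edgeR), which rose to 0.25 without that library. The call was lost without Con replicate 2, Con replicate 3, EX replicate 2 or EX replicate 3, where adjusted p ran up to 0.20. Ndufb4 itself, a membrane-arm subunit, was at 126 ± 4.48 CPM in Con and 133 ± 2.49 in EX (SD, n = 3), at a log2 fold change of 0.08 (adjusted p = 0.19 by edgeR). Summed, an alternative chosen after seeing the data, the 3 genes were at 191, 196 and 196 CPM in Con and 199, 215 and 218 in EX. Every EX library lay above every Con library, and edgeR gave 0.12 on the log2 scale (standard error 0.04, adjusted p = 0.047). Ndufb4b had estimated counts of 9.79, 3.34 and 0 in Con and 2.97, 0 and 16.97 in EX, too few to compare.

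Ndufa4 and Ndufa4l2, which are related in sequence but lie outside complex I, differed from each other. Ndufa4, a subunit placed in cytochrome c oxidase, was at 365, 384 and 359 CPM in Con and 385, 405 and 396 in EX. EX replicate 1 exceeded the highest Con library by little, and the log2 fold change of 0.10 (standard error 0.04) had an adjusted p of 0.065 by edgeR. Without Con replicate 2 it passed the threshold, at 0.12 (adjusted p = 0.049). On TPM values its log2 fold change was -0.01. Ndufa4l2 (gene 407790, chr10:127514967-127517154), which is induced by hypoxia-inducible factor and is known to restrain mitochondrial respiration, was at 10.8, 10.5 and 10.2 CPM in Con and 6.94, 7.70 and 8.32 in EX. All EX libraries lay below all Con libraries. The log2 fold change was -0.45 (standard error 0.11, adjusted p = 3.0e-03 by edgeR), and the call held under all 17 alternatives, with log2 fold changes from -0.55 to -0.38. The counts behind it were 150, 165 and 162 in Con and 110, 121 and 131 in EX. Over 165 aligned bases the transcripts of Ndufa4l2 and Ndufa4 were 73.9% identical.

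Other values are given beside the decrease of Ndufa4l2. The markers of endothelial cells fell with it: of 8 genes, 5 were lower, 0 were higher and 3 did not pass. Over all genes tested 8.8% were called lower. The 8 genes had a median log2 fold change of -0.17 and a range from -0.26 to -0.12. Their sum did not overlap between the groups, nor did the sums of the skeletal muscle, slow fibre, macrophage, tendon and adipocyte markers. The part of these shifts in the decrease of Ndufa4l2 was not tested. Exons of Shmt2 overlap those of Ndufa4l2 on the opposite strand, and Shmt2 had a log2 fold change of 0.05 (adjusted p = 0.68 by edgeR).

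Levels per length were set on the TPM values. Over the 6 libraries the 35 subunits had mean TPM from 63.8 (Ndufa11) to 2049 (Ndufa3), with a median of 511. Ndufa4 lay above all of them at 3099 ± 105 TPM in Con and 3079 ± 48.7 in EX (SD, n = 3), and Ndufa4l2 lay below at 24.3 ± 0.371 and 16.6 ± 1.36. This order leans on the length that the authors' tool assigned to each gene, which was recovered from the ratio of count to FPKM. It was 54.4 bases for Ndufa3, 102 for Ndufc1, 2336 for Ndufa11 and 2399 for Ndufs1, with a median of 425 over the 35 subunits. In CPM, where length plays no part, the lowest of the 35 was Ndufa1, and Ndufa11 lay above it, at 99.3 ± 1.77 CPM in Con. The effective lengths were longer in EX than in Con for all 38 members with enough counts, by 0.672 to 7.41 bases, which lowers TPM and FPKM in EX for short transcripts relative to counts.

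**Figure D4:**
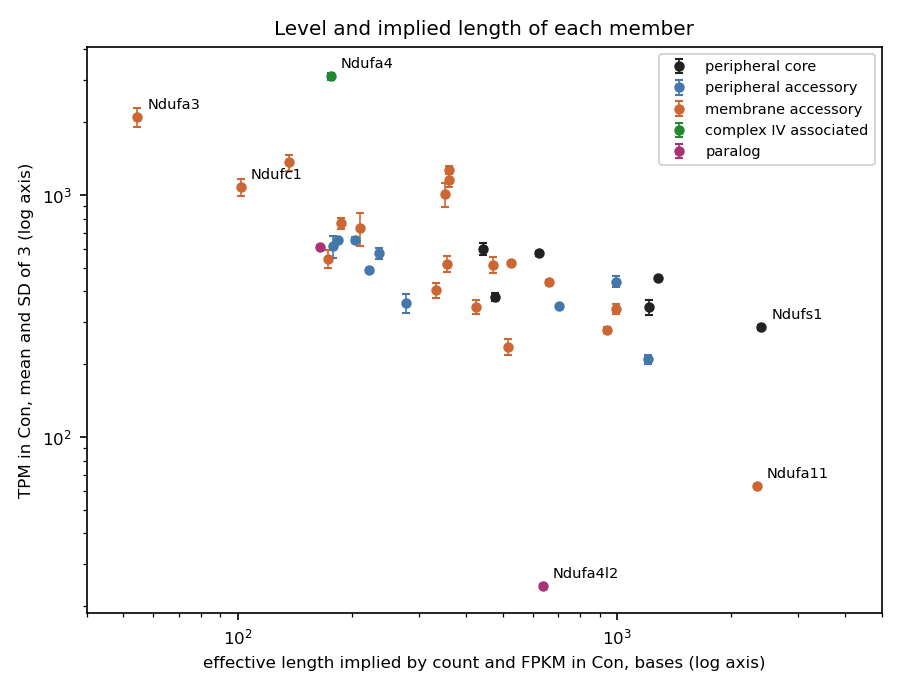
Mean TPM in Con (with SD, n = 3) against the effective length implied by count and FPKM for 37 members, both on log axes and coloured by place in the complex. Ndufa3 and Ndufc1 have the shortest lengths and high TPM, Ndufa11 has a length of 2336 bases and the lowest TPM of the 35 subunits, and Ndufa4 and Ndufa4l2 are at the extremes of TPM.

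Transcripts of the proteins that build the complex were taken from a list of 20 assembly factors, of which 19 were in the table and tested. Among them 4 were higher in EX, 0 were lower and 15 did not pass, against 9.11% of all genes called higher. Ndufaf6 rose by 0.31 on the log2 scale (standard error 0.08, adjusted p = 3.7e-03 by edgeR) and Ndufaf5, a modifier of Ndufs7, by 0.24 (standard error 0.07). Ndufaf1, a factor of the early membrane-arm intermediate, rose by 0.22 (standard error 0.06) and Tmem70, which also serves assembly of ATP synthase, by 0.19 (standard error 0.05). In each of the 4 the groups did not overlap. Tmem70, for example, was at 62.6, 63.9 and 67.2 CPM in Con and 73.2, 76.0 and 72.6 in EX. The median of the 19 was 0.12, against -0.00 over all genes. The same 4 were called with the GC and length offsets, 2 were called without EX replicate 3, and 0 with limma on FPKM or TPM values. Over all genes these fits called 9.62%, 6.13%, 3.78% and 3.12% higher.

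Regulators of mitochondrial biogenesis did not pass the edgeR test. Of 9 genes, 0 were called by edgeR, against 17.9% of all genes. Of the 9, 1 (Gabpa, at -0.15) had an unadjusted p under 0.05 by edgeR, and the median log2 fold change was -0.04. Ppargc1a, the coactivator known to drive the program, was at 37.2, 42.1 and 41.5 CPM in Con and 44.5, 43.0 and 42.0 in EX. EX replicate 3 lay below Con replicate 2, and the log2 fold change was 0.10 (standard error 0.06, adjusted p = 0.25 by edgeR). Ndufab1, the acyl carrier protein that is a subunit under another name, did not pass (log2 fold change 0.05, standard error 0.04, adjusted p = 0.45 by edgeR). Of the listed subunits of complexes II to V, 41 were in the table and tested. Among these, 8 were higher and 1 was lower, or 22.0% called against 17.9% of all genes (9.11% higher and 8.8% lower), with a median of 0.04, and 6 of these increases were among the 15 genes of complex V. The difference from complex I was not tested.

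**Figure D5:**
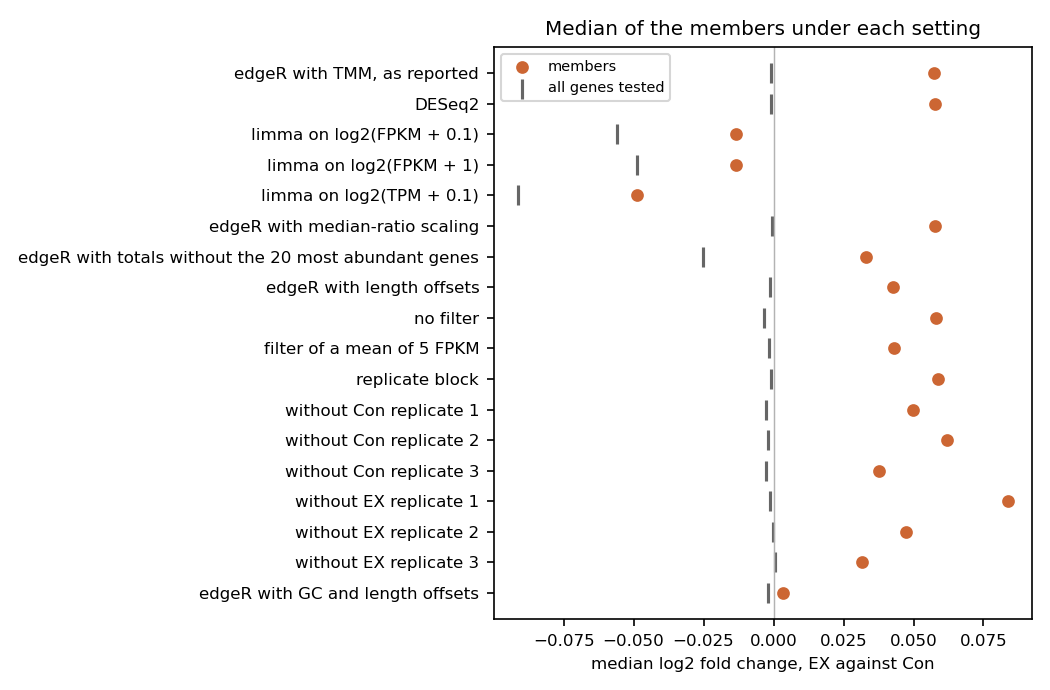
Median log2 fold change of EX against Con over the members (orange points) and over all genes tested (grey bars) under each processing setting, 1 row per setting. The members' median lies above that of all genes in every row, at 0.06 as reported and at 0.00 with GC and length offsets, and both medians are below zero for limma on FPKM and TPM values.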

How the data were processed

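The authors sequenced total RNA from 6 mice on the DNBseq platform with paired reads and filtered the reads. Their methods name HISAT and GRCm39, while the submitters' processing notes list GRCm38.p6, cutadapt, MultiQC and featureCounts, so the build behind the values is not settled here. The deposited values are estimated counts, FPKM and TPM per gene and library. FPKM and TPM are the authors' normalization and the deposited estimated counts are not normalized. The 6 columns of group means were not used.

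Members and lists were chosen with earlier results of these data known. Estimated counts were rounded, scaled by TMM and tested with edgeR 4.0.16 in R 4.3.3, as EX against Con without covariates, for genes whose mean reached 1 FPKM. Levels are CPM on TMM-scaled libraries, and intervals come from the edgeR standard error. The median within-group SD of log2 CPM was 0.06 over the members. P-values measure the spread between these mice. The members called, the extremes of each class and of TPM, Ndufc2, Ndufa4 and Ndufa4l2 were to be given in every library. Ndufv1, Ndufs7, Ndufb7, Ndufb8, Tmem70 and Ppargc1a were added after their values were seen. Alternatives were DESeq2 1.42.0, limma 3.58.1 on log2(FPKM + 0.1), log2(FPKM + 1) and log2(TPM + 0.1), which understates changes of low genes, other scalings and filters, length offsets, a replicate block and leaving out each library. Tests were checked on simulated data. The values of 1 member are not reported here, although it stays in all counts over the set. GRCm38 positions, GC content and exon overlaps came from GENCODE vM21, matched by symbol for 98.1% of genes.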

Additional observations from a re-analysis of the deposited data

How the results depend on the processing

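Of 192 fold changes of single genes recomputed under the other settings, apart from the GC and length offsets, 146 kept their direction and side of the threshold, 33 lost the threshold, 2 gained it and 11 reversed. Of 64 counts of calls 49 stayed within 1.5 times, 13 were lower and 2 higher, and of 16 medians 3 moved. Calls of members higher in EX fell from 5 to 3 with DESeq2 and with totals without the 20 most abundant genes, to 2 with GC and length offsets (chosen after seeing the data) and to 0 with limma on log2(FPKM + 0.1), log2(FPKM + 1) or log2(TPM + 0.1). Without 1 library they ran from 1 (EX replicate 3) to 6, with 2 for EX replicate 2 left out and 3 for Con replicate 2 or Con replicate 3. The share of all genes called higher moved as well, from 9.11% to 5.91% with DESeq2, 7.09% with those totals, 3.78% with limma on FPKM, 3.12% on TPM, 9.62% with GC and length offsets and 6.13% to 8.58% without 1 library. Members lower in EX were 4 on TPM values, and 1 to 2 without 1 library (2 without Con replicate 3). Assembly factors higher in EX were 0 in the limma fits and 2 to 5 without 1 library, with 2 for EX replicate 3 left out. The members' median log2 fold change was -0.014 with limma on FPKM at either pseudocount, -0.049 on TPM and 0.0034 with GC and length offsets. The cause was not tested.

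Among the members given in every library, the reversals were all in genes that were not called. On TPM values the log2 fold change of Ndufa4 was -0.0090, of Ndufs6 -0.0078, of Ndufv2 -0.068, of Ndufb7 -0.071 and of Ndufb8 -0.00033. For Ndufb7 it was also -0.035 on FPKM at either pseudocount, -0.022 with GC and length offsets, and -0.051 to 0.17 without 1 library (below zero without Con replicate 2, Con replicate 3 or EX replicate 2). For Ndufv2 it was also -0.033 and -0.032 on FPKM with the pseudocounts of 0.1 and 1, -0.00043 with totals without the top 20 genes and -0.017 with GC and length offsets. Without 1 library it ran from -0.038 to 0.081 for Ndufv2, from -0.16 to 0.018 for Ndufb10, from -0.059 to 0.053 for Ndufs5 and from -0.13 to 0.036 for Ndufv3. The lower end came without Con replicate 3 and the upper end without Con replicate 1 in each of these 4.

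Libraries with equal replicate numbers showed no shared deviation. Correlations of deviations for equal numbers were -0.08, -0.05 and -0.01, and for unequal numbers they ran from -0.06 to 0.11. Such values cannot exclude that mice were paired in some way. With the numbers as a replicate block, the 5 and 1 calls of members and the 4 of assembly factors did not change in number, and all 6 members called were shared. With 3 mice a group, an exact permutation test cannot go below 0.1 for a single gene. Where a library has 0 counts of a gene, up to 3 (0.188 to 0.215 CPM) are allowed by counting error alone, which limits Ndufb4b.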
